A study of Rattus norvegicus with 6 samples.

Results

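Purine breakdown and salvage are described here through 10 genes, listed by symbol: Ampd2, Ampd3, Nt5e, Ada, Pnp, Gda and Xdh for the way from AMP down to urate, and Adk, Aprt and Hprt1 for the return of bases and nucleosides to nucleotides. Of the 10, 9 had a row among the 18237 genes counted, 8 held enough counts to enter the model fitted to 11726 genes, and Gda had no row. The set was chosen by the library-scaled levels of these same libraries, siMt2 against siNT, so fold changes and intervals of its members are a description and carry no p-value. The data are RNA-seq gene counts from cultured rat myocardial cells labelled NRVM, derived from embryos and kept in DMEM with fetal bovine serum, that had received either a control siRNA (siNT, 3 libraries) or an siRNA named for the metallothionein gene Mt2 (siMt2, 3 libraries). Both groups also share a protocol text that names dexamethasone, isobutylmethylxanthine and insulin without tying them to these cells. The labels do not say whether replicates were separate cultures, so p-values rest only on variation among libraries that may be technical repeats.

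In this pathway AMP loses its amino group to become IMP, through an AMP deaminase, or loses its phosphate to become adenosine, through the ecto-enzyme CD73 at the cell surface or related nucleotidases inside the cell. Adenosine deaminase turns adenosine into inosine, purine nucleoside phosphorylase frees the base hypoxanthine, guanine deaminase feeds guanine in as xanthine, and xanthine oxidoreductase oxidises hypoxanthine and xanthine to urate. Salvage runs the other way: adenosine kinase, adenine phosphoribosyltransferase and hypoxanthine-guanine phosphoribosyltransferase rebuild nucleotides from what would otherwise be lost. In the heart the pathway is known for the loss of purines when ATP breaks down in ischemia, and xanthine oxidoreductase for the superoxide its oxidase form makes on reperfusion, which is the setting the series title names.

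Total counts ran from 2859759 (siMt2 replicate 3) to 6817777 (siMt2 replicate 1) per library. Thus 3 counts correspond to between 0.438 and 1.06 CPM (depth-scaled counts, corrected by TMM for library composition). The targeted transcript Mt2a was not measurably lower under its siRNA: it stood at 118 ± 45.0 CPM in siNT and 99.9 ± 37.3 CPM in the libraries labelled siMt2 (SD, n = 3 each), with an edgeR adjusted p of 0.631 and an exact two-sided permutation p of 0.5, where 0.1 is the smallest 3 against 3 can give. Without siNT replicate 2 its log2 fold change turned from -0.28 to 0.052 (edgeR adjusted p = 0.923), and over all alternatives the adjusted p ran from 0.264 to 0.954. Of 9 heart muscle markers, 8 had a row and summed to 29.3 to 32.2 CPM in siNT and 51.3 to 63.7 CPM in the libraries labelled siMt2. Most of this was Tnnt2, cardiac troponin T and the only one tested, which rose from 27.2 ± 1.38 to 54.5 ± 5.19 CPM (edgeR adjusted p = 1.81e-07), while 5 of the 8 held fewer than 20 counts over all libraries, Myh6 and Actc1 among them. Fibroblast markers summed to 7440 to 7620 CPM in siNT and 9520 to 13500 CPM under siMt2, most of it Col1a1, Col3a1 and Vim. Thy1 averaged 264 and 461 CPM, and Col1a2 varied from 238 to 1151 CPM among the libraries labelled siMt2. Pdgfra, by contrast, had 2 counts in all and Dcn 50. Of the 6 fibroblast markers tested, 4 rose and 0 fell in edgeR. Among the 4 is Dcn, with 4, 5 and 0 counts in siNT and 14, 12 and 15 under siMt2. It lay below the filter's minimum in every siNT library and entered the fit through siMt2 alone, which favours genes higher there. Of 8 skeletal myoblast markers, 6 had a row, Myod1 and Des rose and Myog fell in edgeR. Heart muscle markers other than Tnnt2 were thus scarce beside Col1a1, Col3a1 and Vim, although the cells are labelled as myocardial. Neither the identity of the cells nor the part of these cell types in the results was tested. The comparison as a whole was broad: by edgeR, with a threshold of 0.05 on the adjusted p, 50.9% of the genes differed, 25.8% higher and 25.1% lower, and for 57.6% the groups did not overlap.

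The upstream sequence of 3 members is shown first for contrast: Xdh had the lowest fold change of the members, Aprt the highest of those in the promoter table, and Pnp, the step before xanthine oxidoreductase, overlapped between the groups. Of the 10 members, 9 have an entry in RefSeq's promoter table (rat build GRCr8, which is not the build of the counts). The stretches end on the base before the annotated start and run 5′ to 3′ on the gene's own strand, and the one for Aprt is shorter because its neighbour Galns begins there. Capitals mark the letters of the motifs searched. The Xdh stretch is chr6:27282069-27282318 (plus strand), that of Aprt chr19:67537028-67537174 (minus strand) and that of Pnp chr15:26643897-26644146 (plus strand).
Xdh: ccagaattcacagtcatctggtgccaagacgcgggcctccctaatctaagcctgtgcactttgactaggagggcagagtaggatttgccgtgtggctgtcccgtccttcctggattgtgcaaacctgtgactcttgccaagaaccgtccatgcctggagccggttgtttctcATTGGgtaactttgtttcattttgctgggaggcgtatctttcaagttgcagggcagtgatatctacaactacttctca
Aprt: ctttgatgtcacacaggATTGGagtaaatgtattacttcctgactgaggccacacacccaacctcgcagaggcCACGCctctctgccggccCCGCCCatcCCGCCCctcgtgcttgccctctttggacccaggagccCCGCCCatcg
Pnp: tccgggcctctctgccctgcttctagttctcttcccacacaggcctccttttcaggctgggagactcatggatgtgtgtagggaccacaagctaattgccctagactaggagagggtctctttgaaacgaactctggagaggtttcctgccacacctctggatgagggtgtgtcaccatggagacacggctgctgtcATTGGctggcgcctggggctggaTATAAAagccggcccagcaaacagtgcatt

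Xdh carried 1 CCAAT box (CCAAT, either strand), 78 bases before the start, and none of the other motifs searched. The Aprt stretch carried 3 GC boxes (GGGCGG, either strand), at 56, 47 and 10 bases, 1 CCAAT box at 130 bases and the letters GCGTG, a core of the hypoxia response element searched on either strand, at 74 bases. Pnp carried a TATA box (TATAAA, gene strand only) at 30 bases and a CCAAT box at 53 bases. Of all 33469 promoters in the table, 34.0% hold CCAAT in the 250 bases before the start, 30.5% GGGCGG, 25.9% GCGTG and 8.06% TATAAA. The other core of the hypoxia response element, ACGTG, and the antioxidant response element core TGACNNNGC were searched on either strand and found in 16.6% and 10.1% of all promoters. Neither was found in the windows of the 9 members. Motifs did not overlap each other in the stretches shown.

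Xdh, the gene of xanthine oxidoreductase, had the lowest fold change of the members. It stood at 178, 181 and 178 CPM in siNT replicates 1 to 3 and at 58.0, 60.3 and 64.4 CPM in the libraries labelled siMt2. The groups lay far apart, and within each the libraries sat closely together. Averaged, that is 179 ± 2.00 against 60.9 ± 3.28 CPM (SD, n = 3 each), or 34.0% of the siNT level, and on the log2 scale a difference of -1.57 (SE 0.07) with a 95% interval of -1.70 to -1.43. With 986, 759 and 1160 counts in siNT and 397, 255 and 183 in the others, Xdh was also the member with the most counts, 3740 in all. Its libraries varied by 1.12% of the mean in siNT and by 5.39% under siMt2, less than the 3.26% and 6.30% that counting alone would give. Ranked from the lowest fold change to the highest, Xdh lay at percentile 0.614 of the genes tested.

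**Figure D1:**
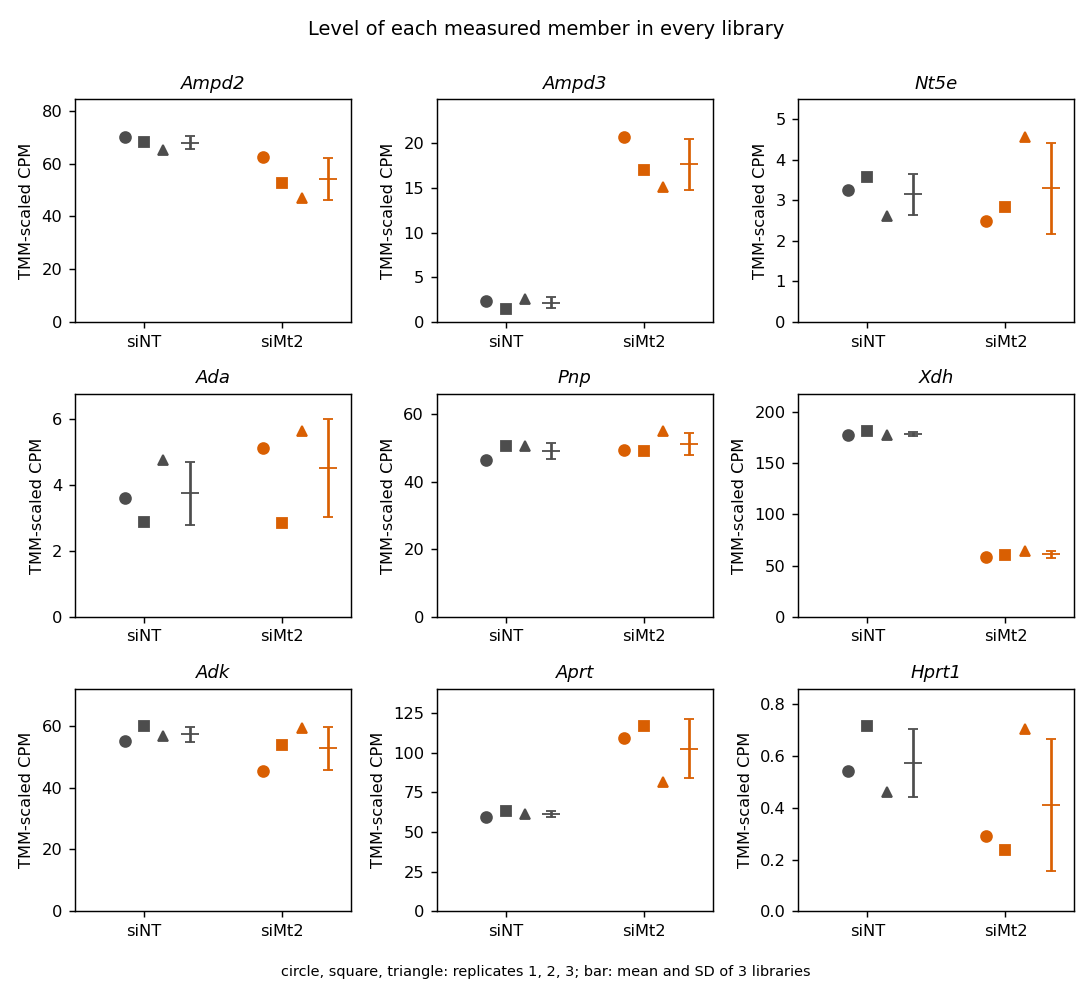
Level of the 9 members with a row in the counts, 1 panel each, as TMM-scaled CPM on a linear axis from 0. Circles, squares and triangles are replicates 1, 2 and 3 of siNT (grey) and siMt2 (orange), and the bar beside them is the mean with its SD. Xdh and Ampd3 separate by many times their spread, whereas Nt5e, Ada, Pnp, Adk and Hprt1 overlap.

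The AMP deaminase genes, which stand at the head of the path, went different ways. Ampd3, the isoform first described in red blood cells, stood at 2.35, 1.43 and 2.61 CPM in siNT and at 20.7, 17.0 and 15.1 CPM in the libraries labelled siMt2. Each of the libraries labelled siMt2 thus exceeded every siNT library severalfold. The means were 2.13 ± 0.616 and 17.6 ± 2.84 CPM, a log2 difference of 3.01 (SE 0.25) with a 95% interval of 2.49 to 3.54, or 8.07-fold, at percentile 99.8 of all genes tested. The siNT counts behind this were few, at 13, 6 and 17, and their replicate spread of 28.9% is near the 31.7% expected from counting. A RefSeq locus without a gene name, LOC103691204, overlaps Ampd3, and the sources used here do not say how reads shared between them were counted.

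Ampd2, the isoform best known from liver and expressed in most tissues, stood at 70.3, 68.4 and 65.3 CPM in siNT and at 62.6, 52.7 and 46.8 CPM under siMt2. The groups did not overlap, though the highest siMt2 library, at 62.6 CPM, came close to the lowest siNT library, at 65.3 CPM. The means were 68.0 ± 2.51 and 54.1 ± 7.98 CPM, a log2 difference of -0.30 (SE 0.10) with a 95% interval of -0.51 to -0.09. This difference was ordinary in size, as percentile 46.5 of absolute change among the genes tested. Replicates under siMt2 varied by 14.8%, against 6.91% from counting. Ampd1, the skeletal muscle isoform and not one of the 10, had no more than 3 counts in any library.

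The summed AMP deaminase counts overlapped between the groups, while their make-up differed. Ampd1, Ampd2 and Ampd3 together came to 73.0, 70.5 and 68.2 CPM in siNT and to 83.4, 70.5 and 62.0 CPM under siMt2, means of 70.6 ± 2.39 and 71.9 ± 10.8 CPM. Ampd3 made up 3.22%, 2.03% and 3.82% of these counts in siNT, with exact binomial (Clopper-Pearson) 95% intervals that together span 0.750% to 6.05%. Under siMt2 it made up 24.9%, 24.2% and 24.4%, with intervals spanning 18.3% to 31.5%. These intervals allow for counting error within a library alone. The labels name no molecular identifiers by which duplicate reads could be recognised. The shares are of counts and not of transcripts, because transcript lengths are not given with the counts. The ratio of Ampd3 to Ampd2 counts within a library, which no scaling can alter, was 0.0314 ± 0.00962 in siNT and 0.326 ± 0.00457 under siMt2, a 10.7-fold change in which the 3 libraries labelled siMt2 lay between 0.323 and 0.331.

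**Figure D2:**
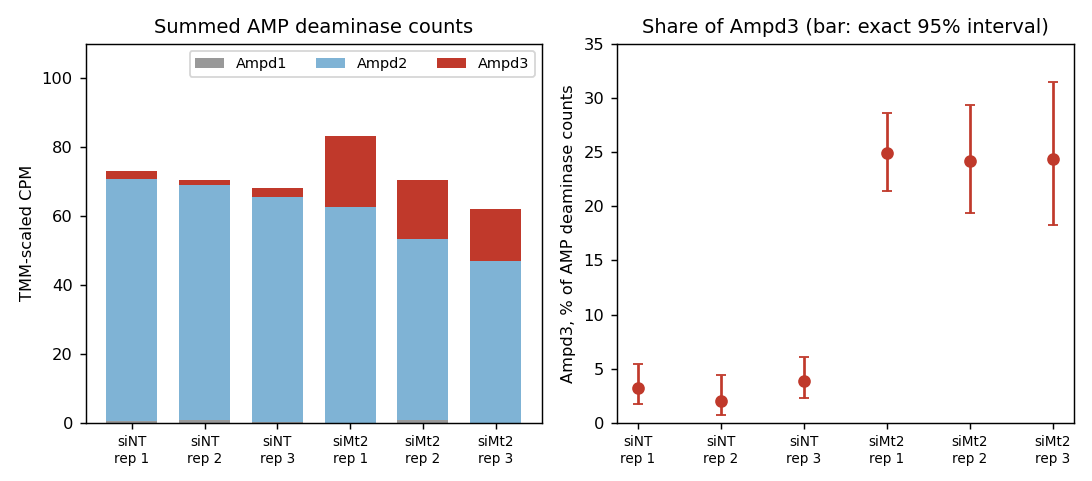
Left, counts of Ampd1, Ampd2 and Ampd3 stacked for each library, in TMM-scaled CPM. Right, Ampd3 as a percentage of the summed AMP deaminase counts of each library, with its exact 95% binomial interval. The height of the stacks overlaps between groups, while the share of Ampd3 lies at 2.03% to 3.82% in siNT and at 24.2% to 24.9% under siMt2.

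At the steps that carry AMP through adenosine to hypoxanthine, the groups overlapped. Pnp, purine nucleoside phosphorylase, stood at 46.4, 50.4 and 50.4 CPM in siNT and at 49.5, 49.2 and 54.9 CPM under siMt2. Its groups overlapped, and the log2 fold change of 0.05 (SE 0.10) has an interval from -0.15 to 0.25. With 1500 counts in all, Pnp was measured about as finely as Ampd2.

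Nt5e and Ada were scarce and therefore loosely measured. Nt5e, the gene of the ecto-5′-nucleotidase CD73, stood at 3.25, 3.59 and 2.61 CPM in siNT and at 2.48, 2.84 and 4.58 CPM under siMt2, from 92 counts in all. Ada, adenosine deaminase, stood at 3.61, 2.87 and 4.75 CPM against 5.11, 2.84 and 5.63 CPM, from 126 counts. Both overlapped between groups. The log2 fold change of Nt5e was 0.0019 (95% interval -0.83 to 0.83) and that of Ada 0.24 (-0.46 to 0.93), so a change of less than about that width was not detectable at this depth. The RefSeq table places Snx14 across Nt5e, and reads from the shared stretch cannot be told apart without strand. Guanine deaminase could not be described, since Gda had no row.

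Salvage was uneven as well. Aprt, which joins adenine to phosphoribosyl pyrophosphate to give AMP, stood at 59.3, 63.1 and 61.2 CPM in siNT and at 109, 117 and 81.4 CPM under siMt2. Its siMt2 libraries all lay above siNT, and replicate 3, the library with the fewest counts, was well below the other 2. The means were 61.2 ± 1.93 and 102 ± 18.6 CPM, a log2 difference of 0.76 (SE 0.10) with a 95% interval of 0.55 to 0.98, or 1.70-fold. The spread of 18.2% under siMt2 exceeded the 5.06% of counting, whereas the 3.15% in siNT did not exceed its 5.58%. Leaving out siMt2 replicate 3 gave the highest log2 fold change of any alternative run for Aprt, 0.88.

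Adk, adenosine kinase, which returns adenosine to AMP, stood at 55.1, 60.0 and 56.9 CPM in siNT and at 45.4, 53.7 and 59.2 CPM under siMt2. The groups overlapped, and the log2 difference was -0.14 (SE 0.10) with a 95% interval of -0.36 to 0.07. Adk is a long gene that overlaps 4 other RefSeq genes, among them Ap3m1. Hprt1, the gene of hypoxanthine-guanine phosphoribosyltransferase, which cells commonly express, had 3 counts in each siNT library and 2, 1 and 2 under siMt2, 14 in all. Both groups were at or under the limit that a count of 0 allows, so no fold is given. Whether reads of Hprt1 went to another locus or were dropped before counting was not tested.

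**Figure D3:**
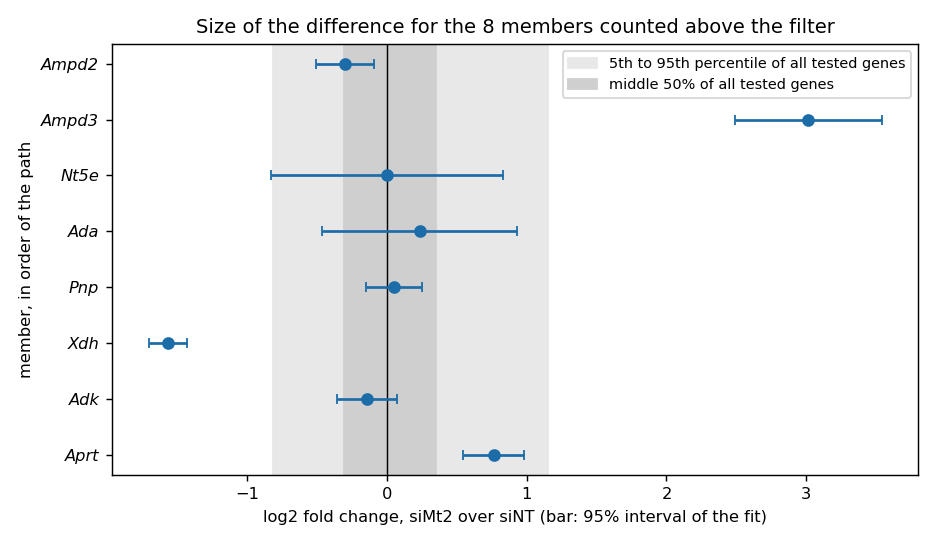
Log2 fold change (siMt2 over siNT) of the 8 members in the fit, in the order of the path, each with its 95% interval. The pale band spans the 5th to the 95th percentile of all genes tested (-0.817 to 1.15) and the darker band the middle 50%. Ampd3 and Xdh lie outside the pale band on opposite sides, Aprt lies inside it, and the points of the other 5 lie inside the darker band.

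Of the 8 members fitted, 4 had groups that did not overlap, 2 higher (Ampd3 and Aprt) and 2 lower (Xdh and Ampd2), beside 57.6% of all genes tested, 28.9% higher and 28.7% lower. The median absolute log2 fold change was 0.27 over the members and 0.33 over all genes, and the median signed change 0.027 and 0.00049. Hprt1 did not enter the fit, and a low gene enters it more easily when it is high in 1 group, as Ampd3 was.

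Ratios of counts within a library put the members side by side without any scaling. Xdh to Pnp, the last 2 enzymes before urate, went from 3.84, 3.60 and 3.53 in siNT to 1.17, 1.23 and 1.17 under siMt2, 3.07-fold lower. Xdh to Aprt, the exit against the salvage of adenine, went from 2.93 ± 0.0683 to 0.614 ± 0.155, 4.87-fold lower. Aprt to Adk went from 1.07 ± 0.0137 to 1.98 ± 0.538, and siMt2 replicate 3 at 1.38 stood closer to siNT than the others at 2.40 and 2.18. Groups did not overlap in any of these 3 ratios. Nor did they in Pnp to Adk, 0.841 to 0.887 in siNT and 0.916 to 1.09 under siMt2, although each gene overlapped by itself. The share of all gene pairs without overlap was not computed, so lack of overlap sets none of these ratios apart. The ratios compare how genes changed, not how abundant one is against another, because counts are not corrected for transcript length.

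The profile of Xdh over the 6 libraries was most closely followed by Stk38l, a kinase gene of the NDR family, with a root mean square distance of 0.0567 on the log2 scale after centring, out of 9652 candidate genes whose median distance was 0.786. Stk38l stood at 306 ± 4.32 and 97.2 ± 2.50 CPM. Irs1, the insulin receptor substrate gene (distance 0.0877), and Grk4, a receptor kinase gene (0.0937), came next. Ampd3 was most closely followed by the mitotic cyclin gene Ccnb1 (0.158), by Knstrn, a kinetochore gene (0.236), and by the chemokine gene Cxcl1 (0.295). These distances rest on a single difference between groups, shared by many genes, and 3 libraries on either side.

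Xdh is known to be strongly expressed in capillary endothelium, so endothelial markers are given beside it. Of 7 endothelial markers 4 had a row, and Tek and Tie1 held fewer than 20 counts each over all libraries, while Pecam1, Cdh5 and Kdr had no row. Their sum ran from 76.3 to 85.4 CPM in siNT and from 33.5 to 40.9 CPM under siMt2, nearly all of it Eng, which fell (edgeR adjusted p = 5.15e-08). Vwf did not pass (edgeR adjusted p = 0.398). Leukocyte markers, 4 of 7 with a row, summed to between 22.7 and 27.3 CPM in siNT and between 14.2 and 17.3 CPM under siMt2. Most of this was Cd14, the only leukocyte marker tested, which fell (edgeR adjusted p = 4.45e-04). Ptprc, Cd68 and Csf1r had 2, 17 and 31 counts in all. Adipocyte markers, 3 of 7 with a row, summed to at most 4.06 CPM in any library. The part of these cell types in the level of Xdh was not tested, and fewer cells of a type cannot be told apart from less RNA per cell.

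Around the 10 genes, 82 others of purine metabolism were listed by their textbook roles. Of these 66 had a row and 51 were tested, of which 17 rose, 9 fell and 25 did not pass in edgeR. The 51.0% that passed are near the 50.9% of all genes tested, of which 25.8% were higher and 25.1% lower, and the median log2 fold change was 0.15 beside 0.00049 over all genes. By list, with 6 to 11 genes tested in each, the share that passed ran from 25% to 71.4%.

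**Figure D4:**
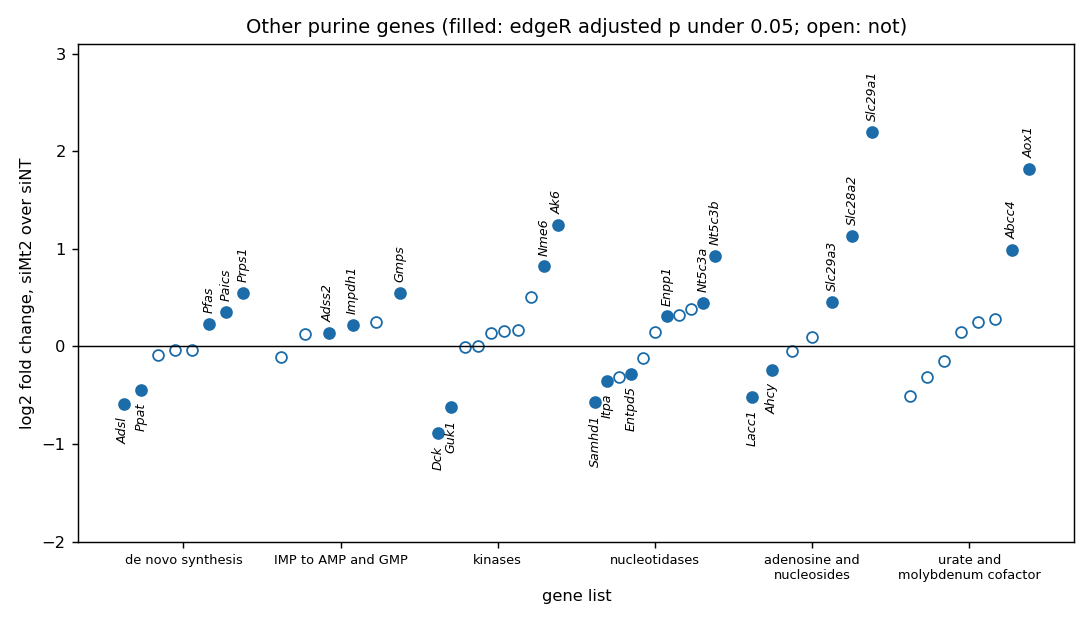
Log2 fold change of other purine genes tested, in 6 lists by role. Filled points passed an edgeR adjusted p of 0.05 and are named, open points did not. Each list holds genes near 0, and the highest points are Slc29a1 and, at 1.82, Aox1.

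Genes that build purines from scratch went both ways: of 8 tested, 3 rose and 2 fell. Adsl, adenylosuccinate lyase, which acts both in this route and on the way from IMP to AMP, fell from 80.2 ± 3.53 to 53.0 ± 6.82 CPM (log2 difference -0.59, SE 0.09, edgeR adjusted p = 2.56e-05). Ppat, the committed step of the route, fell as well (-0.45, SE 0.08, edgeR adjusted p = 1.60e-04). Prps1, which supplies the phosphoribosyl pyrophosphate used by synthesis and by Aprt and Hprt1 alike, rose from 36.9 ± 0.413 to 54.6 ± 5.53 CPM (0.55, SE 0.10, edgeR adjusted p = 1.54e-04). Paics rose (0.36, SE 0.12, edgeR adjusted p = 0.0152) with groups that overlapped, but did not pass without siNT replicate 1 (0.0725), siNT replicate 3 (0.110) or siMt2 replicate 2 (0.0751), with 0.00270 to 0.110 over all alternatives. The list's median log2 fold change was -0.04, and without siNT replicate 3 or siMt2 replicate 2 only 1 gene of it was higher.

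Between IMP and its products AMP and GMP, 3 of 6 genes tested rose and 0 fell, so 50% passed, beside 50.9% of all genes tested. Gmps, GMP synthetase, stood at 102, 101 and 102 CPM in siNT and at 145, 151 and 151 CPM under siMt2 (log2 fold change 0.55, SE 0.06, edgeR adjusted p = 2.28e-07). Impdh1, which starts the branch to GMP, rose slightly (0.22, SE 0.07, edgeR adjusted p = 0.0126), as did Adss2, counted under its older symbol Adss, which starts the branch to AMP (0.14, SE 0.05, edgeR adjusted p = 0.0413). Impdh2, the other gene of the step that starts the branch to GMP, leaned lower, from 142 ± 7.68 to 131 ± 2.46 CPM. It did not pass (-0.11, SE 0.06, edgeR adjusted p = 0.151). The calls of Impdh1 and Adss2 are both weak. That of Impdh1 was lost without siNT replicate 1 (0.0590) or siMt2 replicate 2 (0.0645) and in DESeq2 (0.0548), with 0.00423 to 0.0645 over all alternatives. That of Adss2 was lost without siNT replicate 1 (0.152), siNT replicate 2 (0.113) or siMt2 replicate 3 (0.135), in DESeq2 (0.103) and in limma-voom (0.0725), with 0.00899 to 0.152 over all alternatives. Only 1 gene of the list was higher in DESeq2 and without siNT replicate 1.

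Of 11 kinase genes tested, which pass phosphate between purine nucleotides and nucleosides, 3 rose and 2 fell. Ak6, a nuclear adenylate kinase, rose from 14.3 ± 2.35 to 33.6 ± 3.14 CPM (log2 difference 1.25, SE 0.15, edgeR adjusted p = 6.00e-07). Guk1, guanylate kinase, fell from 77.4 ± 1.37 to 49.8 ± 4.24 CPM (-0.62, SE 0.09, edgeR adjusted p = 6.47e-06). Nme6, a nucleoside diphosphate kinase gene, rose as well (0.82, SE 0.19, edgeR adjusted p = 0.00114). Nme1 and Nme2, near-identical neighbours whose reads are hard to assign, did not pass. Upper quartile scaling gave 5 genes higher in place of 3.

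Nucleotidases and ectonucleotidases were split evenly, with 3 of 11 tested higher and 3 lower. The cytosolic nucleotidase genes Nt5c3b and Nt5c3a, whose enzymes act mainly on other nucleotides than AMP, rose by 0.93 (SE 0.15, edgeR adjusted p = 2.56e-05) and 0.45 (SE 0.11, edgeR adjusted p = 0.00139) on the log2 scale. Samhd1, which breaks down deoxynucleotides, fell (-0.57, SE 0.15, edgeR adjusted p = 0.00290), and so did Entpd5, a nucleotide diphosphatase of the endoplasmic reticulum (-0.28, SE 0.08, edgeR adjusted p = 0.00641). Entpd1, the gene of CD39, which makes the AMP that CD73 uses, was too low to be tested, at 30, 8 and 3 counts in siNT and 4, 7 and 6 under siMt2.

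Adenosine receptors were at the limit of detection. Adora1 and Adora2b had at most 12 counts in any library and were not tested, and Adora2a and Adora3 had no row. Of 7 genes of the list tested, which otherwise move or release nucleosides, 3 rose and 2 fell, but with any 1 library left out only 1 or 2 were higher, and 2 with no filter or a stricter filter on low counts. Among the 3, Slc29a1 and Slc28a2 lay below the filter's minimum in every siNT library and entered the fit through siMt2 alone, which favours genes that are higher there. Slc29a1, the equilibrative nucleoside transporter ENT1 through which adenosine crosses the membrane, had 7, 7 and 3 counts in siNT and 49, 14 and 10 under siMt2, means of 1.13 ± 0.617 and 4.66 ± 2.16 CPM (a fitted fold of 4.58, SE 0.46 on the log2 scale, edgeR adjusted p = 5.06e-04). The groups did not overlap, but siMt2 replicate 1 was about as high as the other 2 summed, and without it the log2 fold change was 1.65 (edgeR adjusted p = 0.0242, the highest over its alternatives). With no filter on low counts its log2 fold change was 2.16 (SE 0.45, edgeR adjusted p = 1.18e-05). That run also lowered the adjusted p of Abcc4 and Aox1, though not that of Impdh1, so the smaller value does not gauge the filter's effect. Lacc1, whose enzyme has been assigned adenosine deaminase and phosphorylase activities, fell from 35.2 ± 1.24 to 24.5 ± 0.693 CPM (-0.52, SE 0.11, edgeR adjusted p = 7.35e-04).

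Slc29a3, the lysosomal nucleoside transporter, rose (0.45, SE 0.15, edgeR adjusted p = 0.0167), and Ahcy, which releases adenosine from S-adenosylhomocysteine, fell (-0.24, SE 0.08, edgeR adjusted p = 0.0148). The call of Slc29a3 was lost without siNT replicate 3 (0.110) or siMt2 replicate 2 (0.0660) and in DESeq2 (0.0520), with 0.0103 to 0.110 over all alternatives. That of Ahcy was lost without siNT replicate 3 (0.0881), siMt2 replicate 1 (0.0957) or siMt2 replicate 2 (0.0696) and in DESeq2 (0.05003), with 0.00125 to 0.0957 over all alternatives. Without siNT replicate 3, without siMt2 replicate 2 and in DESeq2, the list held 1 gene higher and 1 lower, and 1 lower also without siMt2 replicate 1.

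The last list holds urate removal, urate transporters, the molybdenum cofactor and related molybdenum enzymes. Of its 8 genes tested 2 rose and 0 fell, so 25% passed, beside 50.9% of all genes tested. Aox1, aldehyde oxidase, the closest relative of Xdh among these genes and like it a molybdenum enzyme, stood at 13.7, 12.2 and 9.50 CPM in siNT and at 43.1, 35.5 and 46.1 CPM under siMt2. It thus moved opposite to Xdh, from 11.8 ± 2.14 to 41.6 ± 5.49 CPM (log2 difference 1.82, SE 0.15, edgeR adjusted p = 4.51e-09). Abcc4, an exporter whose substrates include urate and cyclic nucleotides, rose from 72.1 ± 1.71 to 143 ± 5.33 CPM (0.99, SE 0.07, edgeR adjusted p = 1.46e-10). The genes that make or load the molybdenum cofactor which Xdh and Aox1 both need, Mocs1, Mocs2, Mocs3 and Mocos, did not pass in edgeR, with log2 fold changes of 0.28, 0.15, -0.51 and 0.26. Uox, the urate oxidase that rats use to degrade urate further, had 0 counts in siNT and 2 under siMt2 and was not tested. Without siMt2 replicate 3, 3 genes of this list were higher and 1 was lower.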

How the data were processed

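Gene counts of 6 RNA-seq libraries (3 siNT, 3 siMt2) were analysed, grouped and numbered by their titles. The authors deposited raw counts per gene with no normalization. Per the submitters' processing notes, Trimmomatic 0.40, HISAT2 2.2.1, featureCounts, limma, DESeq2 and rat build rn6 were used; strand settings and the treatment of reads matching several genes are not given in the sources used here. All files hold the same 18237 rows; 25 carry names turned into dates by a spreadsheet (0.260% of the counts) and stayed in.

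In R 4.3.3, edgeR 4.0.16 fitted all genes passing filterByExpr (minimum count 10) with TMM scaling and the robust quasi-likelihood test, two-sided, with Benjamini-Hochberg adjustment over 11726 genes and a threshold of 0.05. The procedure was tested on simulated data with 200 of 11726 genes changed. Log2 changes of 0.5, 1 and 2 were recovered for 59.1%, 86.4% and 100% of genes, and 4.73% of calls were false. Far fewer genes changed there than the 50.9% called here, so the simulation cannot gauge a difference this broad. Log2 fold changes are siMt2 over siNT. No 2 libraries of a group agreed within counting noise. The median chi-square per gene was 2.16 and 2.28 times that of counting for siMt2 replicate 3 against replicates 1 and 2. For the other pairs within a group it was 1.57 to 1.66 times. Alternatives were DESeq2's size factors, upper quartile scaling, no filter, a stricter filter, a replicate block, each library left out, DESeq2 1.42.0 and limma-voom (limma 3.58.1).

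The members, gene lists and tests were chosen with earlier results of these data known. All members are named; of each purine list, up to 4 passing genes with the smallest adjusted p, except 1 kinase gene that is counted but not reported here by name or drawn; and the 3 genes closest to Xdh and to Ampd3 among genes with a mean of at least 5 CPM. Ampd1, Entpd1, the adenosine receptors, the cofactor genes, Uox, Slc28a2, Impdh2, Nme1 and Nme2 were named after their values were seen, as were the markers. Synonyms and sequences come from RefSeq tables of build GRCr8.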

Additional observations from a re-analysis of the deposited data

How the results depend on the processing

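The log2 fold change of Xdh lay, over all alternatives run, between -1.60 and -1.52 and that of Ampd3 between 2.84 and 3.19. Aprt ranged from 0.67 to 0.88, Ampd2 from -0.44 (without siMt2 replicate 1) to -0.22 (without siMt2 replicate 3), Adk from -0.22 to -0.024 (without siMt2 replicates 3 and 1), Ada from 0.092 to 0.48 and Pnp from 0.0064 to 0.090. Nt5e, close to 0, ranged from -0.23 to 0.21. Mt2a lay between -0.56 and 0.052 with 1 library left out, above 0 without siNT replicate 2, the highest library. The other purine genes that passed numbered 12 to 19 higher and 7 to 10 lower, the fewest higher in DESeq2 and without siMt2 replicate 2. The replicate numbers did not pair the libraries: deviations of same-numbered libraries correlated across genes at -0.0075, -0.0738 and 0.0156. With the replicate block 17 other purine genes were higher and 9 lower, as without it, and the log2 fold change was -1.56 for Xdh and 3.00 for Ampd3. Upper quartile scaling moved the like-patterned gene Stk38l from -1.66 to -1.62. Plain shares of the library total left every member's group mean within 1 SD. Low counts limit what can be said of Nt5e, Ada and Hprt1, and of the siNT level of Ampd3.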
